A study of Capra hircus with 12 samples.

Results

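The genes described here are 47 early response and NF-κB target genes, written as a list of symbols and looked up in the count tables of goat temporomandibular joint (TMJ) cells. Of the 47, 46 had a row among the 28910 genes of each table, all protein-coding, and all 46 held enough reads to be tested in both cell layers. VCAM1 was not analysed here. The members were grouped by function into adhesion molecules and matrix (ICAM1, TNC, SDC4), survival and TNF receptor signaling (BIRC2, BIRC3, TNFAIP2, TRAF1, CFLAR, RIPK2), plasminogen activation and coagulation (PLAU, PLAUR, F3), transcription factors (CEBPB, CEBPD, KLF2, KLF4, KLF6, KLF9, KLF10, NR4A1, NR4A2, NR4A3, MAFF, ID2), phosphatases, mRNA decay and feedback (DUSP1, DUSP4, DUSP5, ZFP36, PPP1R15A, RCAN1), growth arrest and immediate early response (GADD45A, GADD45B, IER2, IER5, BTG1, BTG2, PHLDA1), and ligand, enzymes, kinase and cell machinery (HBEGF, GCH1, SAT1, SGK1, MARCKS, EIF1, SQSTM1, EHD1, PANX1).

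NF-κB is a family of transcription factors that wait in the cytoplasm bound to inhibitor proteins. When IL-1β binds its receptor, a kinase cascade removes the inhibitor, NF-κB enters the nucleus, and its target genes are transcribed. Immediate early genes of the AP-1, NR4A, KLF and IER type answer the same stimulus through MAP kinases without new protein synthesis, and many of both kinds encode brakes on the pathway, short-lived transcription factors or survival factors. In cartilage, IL-1β is the standard laboratory stimulus for an osteoarthritis-like response.

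The cells came from the condylar fibrocartilage of female goats aged 6 to 9 months, obtained from abattoirs, and were used at passages 3 to 5. The superficial layer yielded the cells called SLC, and the cartilage layer beneath it those called MLC. For either layer there were 3 IL-1β libraries and 3 IL-1β + LOXL2 libraries, so labelled. All 12 cultures received 10 ng IL-1β for 1 h; the LOXL2 cultures had been transduced overnight with an adenovirus carrying LOXL2, a lysyl oxidase that crosslinks collagen and elastin. The study's methods name an empty control adenovirus for the goat cells used in flow cytometry. Neither the labels nor the methods for the sequenced cultures say whether the IL-1β cultures received it, so whether LOXL2 is compared with transduced or untransduced cells is not stated. Cells without IL-1β were not analysed here, so a level below is a level after 1 h of IL-1β and not an induction. No label says whether replicates were separate cultures or animals, and the p-values measure only the spread between these libraries. Library totals were 18751323 to 22123593 counts in SLC with IL-1β, 21080134 to 28931652 in SLC with IL-1β + LOXL2, 14158607 to 15330697 in MLC with IL-1β and 14188227 to 19459045 in MLC with IL-1β + LOXL2.

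As a check of the labels, the goat LOXL2 gene was read in all libraries and was no higher with the LOXL2 label: its log2 fold change was -0.27 in SLC (edgeR adjusted p = 0.106) and -0.07 in MLC (edgeR adjusted p = 0.602). Whether the goat annotation would count reads of the adenoviral transcript was not tested. Among 9 written chondrocyte markers, ACAN averaged 401 CPM (counts per 1000000 mapped reads) in MLC and 47.5 in SLC with IL-1β, and COL2A1 averaged 16.7 and 0. SOX9, COL9A1, HAPLN1 and COMP were also higher in MLC, but COL11A1 averaged 1200 and 1230 CPM (log2 fold change -0.04, edgeR adjusted p = 0.627). Of 7 superficial layer genes, COL1A2, FAP and THY1 were lower in MLC. PRG4 was higher there, at 5.98 against 4.39 CPM (log2 fold change 0.45, edgeR adjusted p = 0.0461), and COL1A1 and SCX did not pass. Of 8 endothelial genes, 4 were below 1 CPM in every library, among them the defining genes PECAM1, CDH5 and KDR, and the summed level was 88.3 to 91.3 CPM in MLC with IL-1β, 94.1 to 109 in MLC with LOXL2, 57.2 to 67.4 in SLC with IL-1β and 61.6 to 63.9 in SLC with LOXL2. ERG and EGFL7 made up most of it, with group means of 37.9 to 59.6 and 12.7 to 39.9 CPM, and EGFL7 was higher with LOXL2 in MLC (log2 fold change 0.59, edgeR adjusted p = 0.0245). Of 8 leukocyte genes in the tables, 5 were below 1 CPM in every library, PTPRC, ITGAM and TYROBP among them, and the summed level was 95.6 to 141 CPM in MLC with IL-1β, 83.9 to 100 in MLC with LOXL2, 77.9 to 94.7 in SLC with IL-1β and 55.5 to 96.4 in SLC with LOXL2, most of it CD14 with group means of 65.3 to 107. In MLC the summed level of 7 smooth muscle genes was 1140 to 1200 CPM with IL-1β and 1360 to 1660 with IL-1β + LOXL2. ACTA2 made up most of it, with means of 865 and 1260 CPM, and CNN1 went from 46.4 to 66.5 CPM. The means of PDGFRB, MYH11, NOTCH3, RGS5 and MCAM were lower with LOXL2. The part of the endothelial, leukocyte and smooth muscle lists in the results below was not tested. The first SLC IL-1β + LOXL2 replicate stood apart from the other 2, with a chi-square per degree of freedom against them of 159 and 58.1, compared with 29.2 between those 2 and at most 9.37 within an IL-1β group. The first MLC IL-1β + LOXL2 replicate also stood apart, at 15.2 and 33.9 against 5.81 between the other 2.

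In MLC, 8 of the 46 members differed between IL-1β + LOXL2 and IL-1β at an adjusted p under 0.05. GADD45A, a stress gene that slows the cell cycle, and EIF1, which helps the ribosome find the start codon, were higher. The extracellular matrix glycoprotein gene TNC, the apoptosis inhibitor BIRC3, the TNF receptor adaptor TRAF1, the zinc finger factor KLF6, the orphan nuclear receptor NR4A3 and the membrane channel gene PANX1 were lower. The log2 fold changes of the 8 ran from -0.73 to 0.37. The 2 higher members are 4.35% of the 46, against 9.88% of the 13806 genes tested in MLC, and the 6 lower members are 13.0%, against 11.7% of all genes. In bulk RNA, fewer cells of a type and less RNA per cell cannot be told apart.

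These 8 calls depended on single libraries. Without the first MLC IL-1β + LOXL2 replicate, the mildest of its group with a median absolute log2 difference of 0.10 over the members against 0.27 and 0.29 in the other 2, 10 members were higher (21.7%; 23.1% of all genes) and 14 lower (30.4%; 25.3% of all genes). No member was called when the second LOXL2 replicate or IL-1β replicate 1 or 3 was dropped, and these fits called 0 genes in all. Without the third LOXL2 replicate no member was called either, among 495 genes called in all. Without the second IL-1β replicate only EIF1, GADD45A and SAT1 were called, all higher, among 836 genes called in all. All 8 kept their direction in each of the 6 such fits. In a fit on all 12 libraries no MLC member was called, and that fit called 0 genes in all in MLC. DESeq2's Wald test called the same 8 and EHD1, 3 higher (6.52%; 10.8% of all genes) and 6 lower (13.0%; 12.8% of all genes).

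In SLC, edgeR called no member, and 0% of the 14164 genes tested there. At an unadjusted p under 0.05 stood 21 members (45.7%), against 43.2% of all genes. DESeq2's Wald test called 5 members higher (10.9%; 15.4% of all genes), namely CEBPD, EIF1, GADD45A, IER5 and KLF2, and 10 lower (21.7%; 13.8% of all genes), namely BIRC3, TRAF1, CFLAR, TNC, KLF9, KLF10, NR4A2, NR4A3, DUSP4 and PANX1. When the first SLC IL-1β + LOXL2 replicate was left out, edgeR called 13 higher (28.3%; 31.5% of all genes) and 17 lower (37.0%; 31.2% of all genes). The fit on all 12 libraries, in which the layers share one estimate of the spread, called 8 higher (17.4%; 22.3% of all genes) and 13 lower (28.3%; 18.6% of all genes) in SLC.

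**Figure D1:**
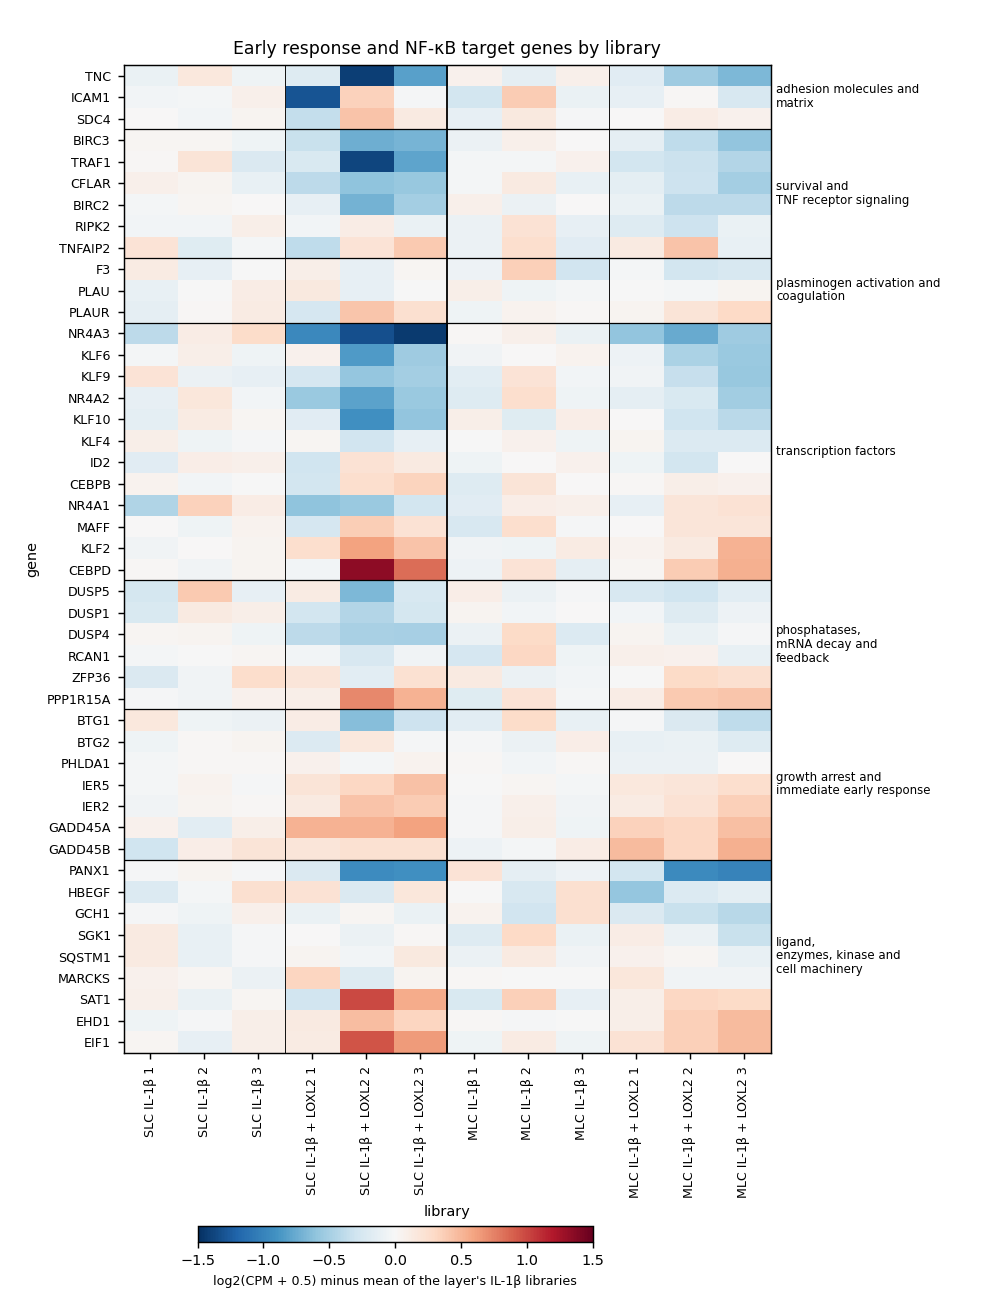
Each of the 46 genes (rows, by function) in each of the 12 libraries (columns), as log2(CPM + 0.5) minus the mean of that layer's IL-1β libraries, with red above and blue below that mean and the colour scale ending at 1.5 in either direction. The first IL-1β + LOXL2 replicate is paler than the second and the third in both layers, with a median absolute difference of 0.20 against 0.43 and 0.32 in SLC and 0.10 against 0.27 and 0.29 in MLC.

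Counted without a model, a member was taken as separated when its 3 LOXL2 libraries all lay on one side of its 3 IL-1β libraries. In SLC, 7 members were separated upward (15.2%; 25.2% of all genes) and 13 downward (28.3%; 23.7% of all genes). In MLC, 6 were separated upward (13.0%; 20.8% of all genes) and 10 downward (21.7%; 20.4% of all genes). EIF1, EHD1, GADD45A, IER2 and IER5 were separated upward in both layers (10.9%; 14.7% of the 13524 genes tested in both), and BIRC2, BIRC3, TRAF1, CFLAR, TNC, NR4A3 and PANX1 downward in both (15.2%; 14.7% of all genes). The sign of the log2 fold change was the same in both layers for 41 of 46 members (89.1%), as for 87.6% of all genes. The median log2 fold change of the members was -0.02 in SLC and -0.08 in MLC, and that of all genes was 0.01 in both.

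**Figure D2:**
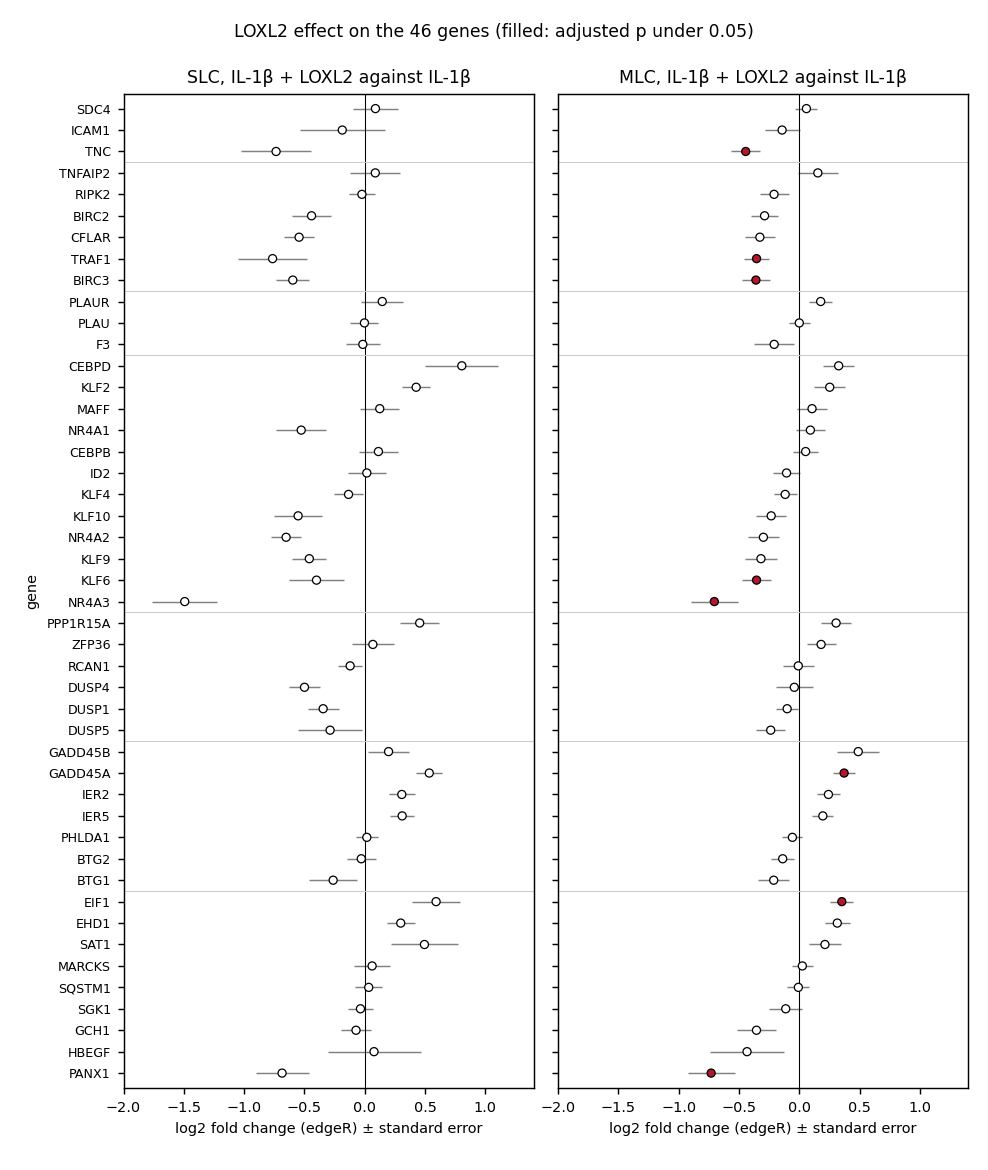
Log2 fold change of IL-1β + LOXL2 against IL-1β (x axis; point, edgeR estimate; bar, standard error) for each gene (y axis, by function) in SLC (left) and MLC (right), with filled points for an adjusted p under 0.05. The 8 filled points are all in MLC, and NR4A3 in SLC is the farthest from 0 at -1.49.

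Among the survival genes, 5 of 6 had a log2 fold change below 0 in both layers and TNFAIP2 alone had values above 0. BIRC3 (gene 102173952, chromosome 15, 76056091 to 76074265 in ARS1.2), the inhibitor of apoptosis cIAP2 and a classic NF-κB target, had 78.3, 88.2 and 83.9 CPM in the MLC IL-1β libraries and 75.7, 64.0 and 55.4 CPM with LOXL2. The groups did not overlap, and the level fell by 22.1% (log2 fold change -0.36, standard error 0.12, edgeR adjusted p = 0.0440). In SLC the values were 63.8, 64.0 and 59.6 CPM with IL-1β and 49.3, 37.4 and 38.2 CPM with LOXL2, again without overlap (log2 fold change -0.60, standard error 0.14, edgeR adjusted p = 0.0706). Its neighbour and paralog BIRC2 (chromosome 15, 76104631 to 76128968 in ARS1.2), which encodes cIAP1, gave 58.3, 51.8 and 55.2 CPM against 51.5, 41.9 and 41.9 CPM in MLC (log2 fold change -0.29, standard error 0.11, edgeR adjusted p = 0.0719). In SLC, BIRC2 gave 53.2, 55.1 and 54.2 CPM against 49.8, 33.0 and 37.8 CPM. All LOXL2 libraries of BIRC2 lay below the IL-1β libraries in both layers, without an adjusted p under 0.05 in either.

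TRAF1 (gene 102182975, chromosome 8, 110009981 to 110032977 in ARS1.2), an adaptor that joins TNF receptors to the cIAPs, had 25.7, 25.5 and 27.3 CPM in MLC with IL-1β and 21.5, 20.8 and 19.2 CPM with LOXL2. It fell by 21.8% (log2 fold change -0.36, standard error 0.11, edgeR adjusted p = 0.0360), with narrow spread in both groups. In SLC the values were 28.8, 32.7 and 24.5 CPM and 24.2, 10.7 and 16.2 CPM, where the first LOXL2 replicate lay just under the lowest IL-1β library (log2 fold change -0.76, standard error 0.29, edgeR adjusted p = 0.0898). CFLAR, the caspase-8 decoy that blocks death receptor signaling, had 27.0, 26.3 and 23.7 CPM with IL-1β and 19.4, 16.7 and 17.1 CPM with LOXL2 in SLC (log2 fold change -0.54, standard error 0.12, edgeR adjusted p = 0.0706). In MLC it had 23.5, 26.3 and 22.2 CPM and 21.6, 19.1 and 16.6 CPM (log2 fold change -0.33, standard error 0.13, edgeR adjusted p = 0.0763). The LOXL2 libraries of CFLAR were all below the IL-1β libraries in each layer. RIPK2, a kinase of the NOD receptors, overlapped between the groups in both layers, between 23.0 and 33.3 CPM.

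TNFAIP2, a TNF- and IL-1-inducible gene of cell protrusions, overlapped between groups in both layers, with 31.3, 23.9 and 26.6 CPM against 20.8, 31.3 and 35.7 CPM in SLC and 12.6, 16.2 and 11.9 CPM against 14.8, 18.2 and 12.5 CPM in MLC. Its log2 fold changes were 0.09 (standard error 0.21) in SLC and 0.15 (standard error 0.16) in MLC.

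**Figure D3:**
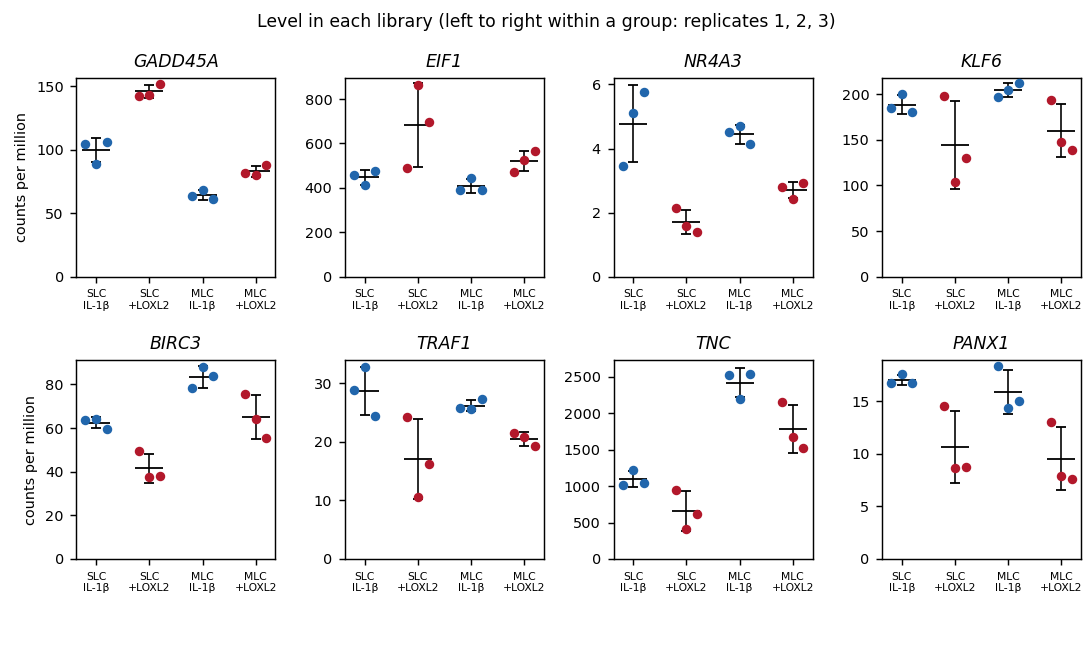
CPM of the 8 genes called in MLC in each of the 12 libraries (y axis from 0; blue, IL-1β; red, IL-1β + LOXL2; horizontal bar and whiskers, mean ± SD of 3 libraries). KLF6 in SLC is the one gene and layer here where the groups overlap, with the first LOXL2 replicate at 197 CPM.

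Of the adhesion and matrix members, only TNC passed the test. TNC (gene 102179198, chromosome 8, 103912121 to 104013697 in ARS1.2) encodes tenascin-C, a matrix glycoprotein of injured and inflamed tissue. It had 2531, 2196 and 2537 CPM in MLC with IL-1β and 2152, 1673 and 1517 CPM with LOXL2, a level that fell by 26.6% (log2 fold change -0.45, standard error 0.12, edgeR adjusted p = 0.0283). The SLC libraries had 1013, 1218 and 1045 CPM and 954, 409 and 618 CPM (log2 fold change -0.73, standard error 0.29, edgeR adjusted p = 0.0966). The groups did not overlap in either layer, and in SLC the LOXL2 libraries were more spread than the IL-1β libraries. ICAM1, the ligand of leukocyte integrins and the textbook adhesion target of NF-κB, had 98.0, 99.4 and 107 CPM with IL-1β and 41.0, 129 and 100 CPM with LOXL2 in SLC. The LOXL2 libraries of ICAM1 lay below, above and within the IL-1β range (log2 fold change -0.19, standard error 0.35, edgeR adjusted p = 0.698), and without the first of them its log2 fold change was 0.16. In MLC, ICAM1 had 94.0, 148 and 106 CPM and 104, 115 and 95.9 CPM (log2 fold change -0.14, standard error 0.14, edgeR adjusted p = 0.489), within which the second IL-1β replicate was the highest. The syndecan gene SDC4 ranged from 314 to 539 CPM in SLC with LOXL2, a range that holds all 3 IL-1β libraries.

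Among the 12 transcription factors, NR4A3 and KLF6 were lower in MLC and the other 10 did not pass the test. NR4A3 (gene 102188043, chromosome 8, 64525876 to 64567842 in ARS1.2), an orphan nuclear receptor of the immediate early class, had 4.51, 4.72 and 4.13 CPM in MLC with IL-1β and 2.79, 2.43 and 2.93 CPM with LOXL2. The level fell by 38.7% (log2 fold change -0.71, standard error 0.19, edgeR adjusted p = 0.0282). Its SLC values were 3.46, 5.10 and 5.78 CPM and 2.14, 1.58 and 1.41 CPM (log2 fold change -1.49, standard error 0.27, edgeR adjusted p = 0.0706), the member with the lowest log2 fold change in SLC. These values rest on 31 to 117 reads a library. NR4A2 had 130, 160 and 138 CPM with IL-1β and 96.4, 81.5 and 96.7 CPM with LOXL2 in SLC (log2 fold change -0.65, standard error 0.13, edgeR adjusted p = 0.0706), without overlap. In MLC the NR4A2 values, 170, 233 and 187 CPM and 178, 167 and 136 CPM, overlapped (log2 fold change -0.30, standard error 0.13, edgeR adjusted p = 0.105).

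NR4A1, the founding receptor of that family, had 40.0, 70.1 and 59.2 CPM with IL-1β and 36.0, 37.2 and 45.5 CPM with LOXL2 in SLC (log2 fold change -0.53, standard error 0.21, edgeR adjusted p = 0.0988). In MLC it had 33.5, 40.4 and 39.6 CPM and 34.5, 42.8 and 43.8 CPM (log2 fold change 0.09, standard error 0.12, edgeR adjusted p = 0.603). The NR4A1 groups overlapped in both layers, in SLC through the first IL-1β replicate alone. The log2 fold changes of the layers differed by 0.61 for NR4A1, by 0.78 for NR4A3 and by 0.45 for DUSP4, higher in MLC each time, at an unadjusted p of 0.0358, 0.0280 and 0.0403 in the interaction test of edgeR across all 12 libraries. None passed adjustment (adjusted p = 0.958 for each), and the interaction was called for 0% of 14565 genes. At an unadjusted p under 0.05 stood 3 members (6.52%) and 2.27% of all genes.

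KLF6 (gene 102189494, chromosome 13, 44008663 to 44017431 in ARS1.2), a zinc finger factor, had 197, 205 and 212 CPM in MLC with IL-1β and 193, 147 and 139 CPM with LOXL2. It fell by 21.8% (log2 fold change -0.36, standard error 0.12, edgeR adjusted p = 0.0470), with the first LOXL2 replicate only just below the lowest IL-1β library. In SLC it had 184, 200 and 180 CPM and 197, 104 and 130 CPM, and the first LOXL2 replicate lay among the IL-1β values (log2 fold change -0.40, standard error 0.23, edgeR adjusted p = 0.203). KLF9, a glucocorticoid-responsive repressor, had 188, 154 and 149 CPM and 137, 109 and 114 CPM in SLC, without overlap (log2 fold change -0.46, standard error 0.14, edgeR adjusted p = 0.0717). KLF10, a TGF-β-inducible repressor, had 32.6, 39.5 and 36.9 CPM and 32.1, 19.0 and 23.8 CPM in SLC, where the first LOXL2 replicate lay just below the lowest IL-1β library (log2 fold change -0.55, standard error 0.20, edgeR adjusted p = 0.0852). KLF2, a shear-responsive factor that restrains NF-κB in endothelium, differed the other way, with 45.4, 47.4 and 48.5 CPM and 56.2, 71.7 and 63.7 CPM in SLC (log2 fold change 0.43, standard error 0.12, edgeR adjusted p = 0.0706). In MLC the KLF2 groups, 37.6, 37.1 and 42.3 CPM and 40.3, 42.8 and 56.2 CPM, overlapped.

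CEBPB, a leucine zipper factor that acts with NF-κB on cytokine genes, overlapped between groups in both layers, at 212, 198 and 203 CPM against 168, 243 and 258 CPM in SLC and 201, 263 and 231 CPM against 233, 246 and 242 CPM in MLC. Its paralog CEBPD, named after its values were seen, had 702, 666 and 715 CPM with IL-1β and 676, 1761 and 1241 CPM with LOXL2 in SLC. The second and the third LOXL2 libraries were the highest and the first lay within the IL-1β range (log2 fold change 0.81, standard error 0.30, edgeR adjusted p = 0.0899; DESeq2 called it higher). In MLC, CEBPD had 827, 1010 and 799 CPM and 895, 1140 and 1270 CPM (log2 fold change 0.33, standard error 0.13, edgeR adjusted p = 0.0842). KLF4, ID2 and MAFF overlapped between the groups in both layers.

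Of the growth arrest and immediate early members, GADD45A was higher in MLC. There 4 of 7 were separated upward and 1, BTG2, downward, against 20.8% and 20.4% of all genes. GADD45A (gene 102179904, chromosome 3, 43245995 to 43249271 in ARS1.2) had 63.2, 68.4 and 61.2 CPM in MLC with IL-1β and 81.7, 79.8 and 88.0 CPM with LOXL2. The level was 29.3% higher (log2 fold change 0.37, standard error 0.09, edgeR adjusted p = 0.0235). In SLC the values were 104, 89.0 and 106 CPM and 142, 143 and 152 CPM (log2 fold change 0.54, standard error 0.11, edgeR adjusted p = 0.0706). Neither layer had overlap, and the first SLC LOXL2 replicate lay beside the second. Its paralog GADD45B, an NF-κB-induced inhibitor of stress kinase signaling, had 3.67, 3.80 and 4.26 CPM and 5.63, 4.94 and 5.86 CPM in MLC, without overlap (log2 fold change 0.49, standard error 0.18, edgeR adjusted p = 0.0636). In SLC the values were 6.09, 8.25 and 8.84 CPM and 8.75, 9.07 and 9.01 CPM, which overlapped.

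The serum-inducible genes IER2 and IER5 were separated upward in both layers without passing the test in either. IER2 had 63.8, 68.5 and 67.0 CPM with IL-1β and 73.0, 89.3 and 86.7 CPM with LOXL2 in SLC (log2 fold change 0.31, standard error 0.11, edgeR adjusted p = 0.0835). In MLC, IER2 had 52.4, 55.8 and 51.0 CPM and 58.0, 62.0 and 68.4 CPM (log2 fold change 0.24, standard error 0.10, edgeR adjusted p = 0.0916). IER5 had 71.5, 75.6 and 72.4 CPM and 84.0, 91.1 and 99.5 CPM in SLC (log2 fold change 0.31, standard error 0.10, edgeR adjusted p = 0.0747). In MLC, IER5 had 74.1, 76.2 and 73.0 CPM and 82.8, 84.2 and 88.6 CPM (log2 fold change 0.19, standard error 0.09, edgeR adjusted p = 0.120). The smallest gap was that of IER2 in MLC, between 55.8 and 58.0 CPM. The antiproliferative genes BTG1 and BTG2 and the survival regulator PHLDA1 had log2 fold changes between -0.26 and 0.02 in the 2 layers, none with an adjusted p under 0.05.

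None of the 6 phosphatase, mRNA decay and feedback members was called in either layer by edgeR; at an unadjusted p under 0.05 stood 3 of them in SLC, where 43.2% of all genes did, and 1 in MLC, where 39.0% did, and DESeq2 called DUSP4 in SLC. DUSP1, the phosphatase that switches off p38 and JNK, had 162, 208 and 202 CPM with IL-1β and 157, 139 and 158 CPM with LOXL2 in SLC, just without overlap (log2 fold change -0.34, standard error 0.13, edgeR adjusted p = 0.0880). In MLC it had 101, 94.6 and 97.8 CPM and 95.3, 85.5 and 92.6 CPM (log2 fold change -0.10, standard error 0.09, edgeR adjusted p = 0.424). DUSP4, a nuclear phosphatase of ERK, had 9.44, 9.53 and 8.88 CPM and 6.97, 6.49 and 6.41 CPM in SLC, with all LOXL2 libraries below (log2 fold change -0.50, standard error 0.13, edgeR adjusted p = 0.0706). In MLC the DUSP4 values were 9.94, 13.0 and 9.12 CPM and 10.9, 9.80 and 10.5 CPM and overlapped (log2 fold change -0.04, standard error 0.15, edgeR adjusted p = 0.862). ZFP36, which encodes tristetraprolin, the protein that marks cytokine mRNAs for decay, overlapped in both layers, with 19.4, 21.8 and 27.4 CPM against 25.6, 20.2 and 26.6 CPM in SLC and 24.2, 20.7 and 21.4 CPM against 22.0, 27.1 and 26.2 CPM in MLC. PPP1R15A, the stress-induced subunit that lets translation resume, was named after its values were seen and had 48.5, 47.4 and 51.2 CPM and 51.9, 81.0 and 70.5 CPM in SLC (log2 fold change 0.46, standard error 0.16, edgeR adjusted p = 0.0835).

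In the remaining group, EIF1 was higher and PANX1 lower in MLC. EIF1 (gene 102180698, chromosome 19, 41549567 to 41552136 in ARS1.2) had 389, 444 and 391 CPM in MLC with IL-1β and 474, 524 and 566 CPM with LOXL2, 27.6% higher (log2 fold change 0.35, standard error 0.10, edgeR adjusted p = 0.0277). The SLC libraries had 458, 411 and 476 CPM and 489, 864 and 694 CPM, with the first LOXL2 replicate close to the IL-1β libraries (log2 fold change 0.59, standard error 0.20, edgeR adjusted p = 0.0778). EIF1 has a close paralog, EIF1B, and how reads shared between copies were counted is not stated. PANX1 (gene 102174365, chromosome 29, 118502 to 174104 in ARS1.2), a channel that releases ATP and is opened by caspases, had 18.3, 14.4 and 15.1 CPM in MLC with IL-1β and 13.0, 7.94 and 7.64 CPM with LOXL2. It fell by 39.8% (log2 fold change -0.73, standard error 0.19, edgeR adjusted p = 0.0264), the member with the lowest log2 fold change in MLC. In SLC, PANX1 had 16.7, 17.6 and 16.7 CPM and 14.6, 8.62 and 8.78 CPM (log2 fold change -0.69, standard error 0.22, edgeR adjusted p = 0.0736). The second and the third LOXL2 libraries were between 7.64 and 8.78 CPM in both layers and the first was nearer to IL-1β.

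EHD1, an endosomal recycling ATPase, had 115, 112 and 112 CPM in MLC with IL-1β and 120, 144 and 157 CPM with LOXL2, just outside the threshold (log2 fold change 0.31, standard error 0.11, edgeR adjusted p = 0.0501). Its SLC values were 164, 170 and 183 CPM and 189, 237 and 215 CPM (log2 fold change 0.30, standard error 0.11, edgeR adjusted p = 0.0935). SAT1, which acetylates polyamines, was named after its values were seen and had 502, 447 and 485 CPM with IL-1β and 392, 947 and 703 CPM with LOXL2 in SLC, where the LOXL2 libraries lay on both sides (log2 fold change 0.50, standard error 0.28, edgeR adjusted p = 0.203). The kinase gene SGK1, the membrane protein gene MARCKS, the autophagy receptor gene SQSTM1, the biopterin enzyme gene GCH1 and the growth factor gene HBEGF overlapped between groups in both layers, as did the urokinase gene PLAU, its receptor gene PLAUR and the tissue factor gene F3. PLAU was at 144, 130 and 133 CPM against 135, 133 and 139 CPM in MLC. HBEGF was close to the count limit, with 8 to 29 reads a library.

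In the main edgeR fits, the layers themselves differed in more members than the LOXL2 comparison did. This did not hold in SLC without the first LOXL2 replicate, with 13 members higher and 17 lower. Nor did it hold in SLC in the fit on all 12 libraries, with 8 higher and 13 lower. With IL-1β alone, 13 members were higher in MLC than in SLC (28.3%; 24.0% of 14052 genes) and 16 were lower (34.8%; 22.6% of all genes). These libraries are also the controls of the LOXL2 comparisons. Layer and cell preparation cannot be told apart, since each layer was dissected and digested separately. Of the 29 calls, 27 held whichever library was left out. SQSTM1 was called in 2 of those 6 fits and lost its call when replicate 1 or 3 of either layer was dropped, where its edgeR adjusted p was 0.0602 to 0.173. BTG1 was called in 3 and lost its call when replicate 1 of either layer or replicate 3 of MLC was dropped (edgeR adjusted p = 0.163 to 0.174). DESeq2 did not call NR4A1 (adjusted p = 0.0520). The fit on all 12 libraries called 8 members higher and 12 lower. It called 3723 of 14565 genes in all, against 6544 of 14052 in the main fit.

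Higher in MLC were TNC, the coagulation gene F3, 4 of the 12 transcription factors and others. TNC had 1013, 1218 and 1045 CPM in SLC and 2531, 2196 and 2537 CPM in MLC (log2 fold change 1.15, standard error 0.08, edgeR adjusted p = 4.97e-08). KLF10 had 32.6, 39.5 and 36.9 CPM and 70.2, 58.0 and 70.8 CPM (log2 fold change 0.87, standard error 0.09, edgeR adjusted p = 2.11e-06). F3, the initiator of coagulation, had 9.34, 7.80 and 8.49 CPM and 14.5, 19.8 and 12.5 CPM (log2 fold change 0.87, standard error 0.15, edgeR adjusted p = 0.000297). HBEGF, a ligand of the EGF receptor, had 0.413, 0.532 and 0.740 CPM and 1.55, 1.24 and 1.93 CPM, from 8 to 15 and 19 to 29 reads (log2 fold change 1.48, standard error 0.33, edgeR adjusted p = 0.00216). None of these overlapped between the layers. DUSP5, RCAN1, NR4A2, BIRC3, SDC4, MAFF, CEBPD, PHLDA1 and PLAUR were also higher in MLC, with log2 fold changes from 0.59 down to 0.32.

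Lower in MLC were the phosphatase gene DUSP1, the stress genes GADD45A and GADD45B and others. DUSP1 had 162, 208 and 202 CPM in SLC and 101, 94.6 and 97.8 CPM in MLC (log2 fold change -0.96, standard error 0.08, edgeR adjusted p = 3.87e-07). TNFAIP2 had 31.3, 23.9 and 26.6 CPM and 12.6, 16.2 and 11.9 CPM (log2 fold change -0.999, standard error 0.12, edgeR adjusted p = 1.39e-05). GADD45B had 6.09, 8.25 and 8.84 CPM and 3.67, 3.80 and 4.26 CPM (log2 fold change -0.98, standard error 0.17, edgeR adjusted p = 0.000292). ID2, an inhibitor of helix-loop-helix factors, had 46.4, 56.2 and 55.1 CPM and 27.4, 28.8 and 30.0 CPM (log2 fold change -0.87, standard error 0.08, edgeR adjusted p = 9.63e-07). The layers were fully separated in each of these. PLAU, SAT1, KLF9, GADD45A, EHD1, NR4A1, SGK1, MARCKS, IER2, BTG1, KLF2 and SQSTM1 were also lower in MLC, with log2 fold changes from -0.70 to -0.21. Of the plasminogen genes, the protease PLAU was thus lower and its receptor PLAUR higher in MLC. ICAM1, CEBPB and ZFP36 did not pass the test between layers, with log2 fold changes of 0.20, 0.19 and -0.05 and standard errors of 0.12, 0.08 and 0.12.

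**Figure D4:**
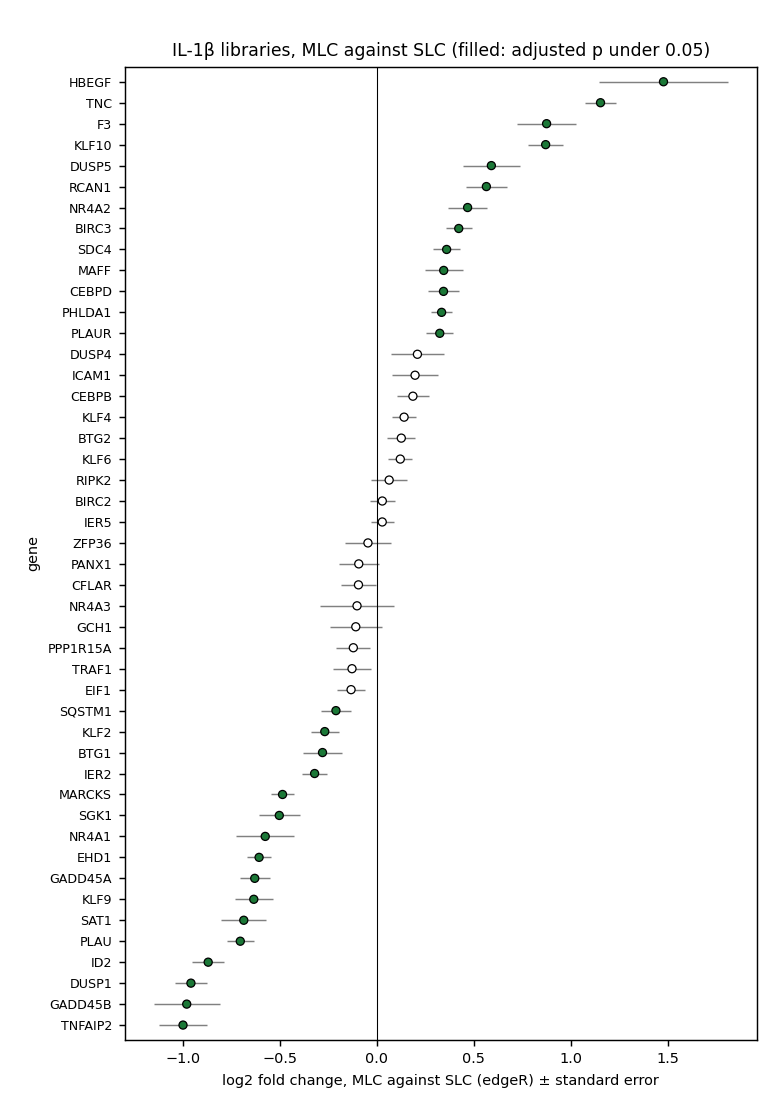
Log2 fold change of MLC against SLC with IL-1β (x axis; point, edgeR estimate; bar, standard error) for each of the 46 genes (y axis, ordered by value), with filled points for an adjusted p under 0.05. The order runs from TNFAIP2 at -0.999 to HBEGF at 1.48, whose standard error is 0.33 at 8 to 29 reads a library.

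The genes around the members in the pathway were read from 7 lists. None of their genes was called in SLC by edgeR; the counts below are for MLC, and DESeq2's calls in SLC follow each. They stand against 9.88% of all genes called higher and 11.7% lower in MLC, and in SLC against 43.2% at an unadjusted p under 0.05 and DESeq2 calls of 15.4% higher and 13.8% lower. Of 21 NF-κB subunits and inhibitors, 2 were lower, REL (log2 fold change -1.28, edgeR adjusted p = 0.0206) and the nuclear IκB gene NFKBIZ (-0.44, edgeR adjusted p = 0.0239), while the inhibitor gene NFKBIB did not pass (0.43, edgeR adjusted p = 0.0519). In SLC, 6 of the 21 stood at an unadjusted p under 0.05, and DESeq2 called 1 higher and 3 lower. Of 23 genes of IL-1 receptor signaling, 6 were lower, among them the feedback kinase gene IRAK3 (-0.71, edgeR adjusted p = 0.0194), the adaptor gene TAB3 (-0.56, edgeR adjusted p = 0.0254) and the co-receptor gene IL1RAP (-0.83, edgeR adjusted p = 0.0353). In SLC, 9 of 24 stood at an unadjusted p under 0.05, and DESeq2 called 6 lower. In MLC, none of either list was higher by edgeR, and DESeq2 called 1 higher in each.

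Of 16 AP-1, EGR and MYC factors, FOSL1 (-0.41, edgeR adjusted p = 0.0266) and FOSL2 (-0.45, edgeR adjusted p = 0.0320) were lower in MLC and JUND (0.41, edgeR adjusted p = 0.0302) was higher. In SLC, 4 of 17 stood at an unadjusted p under 0.05, and DESeq2 called 1 higher and 2 lower. Of 13 other dual-specificity phosphatase and Sprouty genes, 3 were lower in MLC, SPRED1, SPRY4 and SPRED2, which restrain Ras-ERK signaling, with log2 fold changes of -0.53, -0.61 and -0.42; in SLC 3 stood at an unadjusted p under 0.05 and DESeq2 called 3 lower. Of 11 cytokine and chemokine targets that could be tested, PTGS2, the inducible cyclooxygenase, fell from 453 ± 126 to 277 ± 37.6 CPM (SD, n = 3; log2 fold change -0.71, edgeR adjusted p = 0.0204) and LIF from 126 ± 24.5 to 92.4 ± 6.51 CPM (SD, n = 3; log2 fold change -0.45, edgeR adjusted p = 0.0304), while CCL5 did not pass (0.70, edgeR adjusted p = 0.0591). In SLC 3 stood at an unadjusted p under 0.05 and DESeq2 called 3 lower. CXCL1, CXCL2, CXCL3, CXCL5, CXCL6, CCL2, CCL7 and CCL8 were not analysed here.

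Of 9 other KLF genes, 4 were lower in MLC, among them KLF12 (-1.04), KLF7 (-0.47) and KLF3 (-0.40), and of 13 other paralogs of the members, IER5L was higher (0.40) and ZFP36L2 lower (-0.35), with ZFP36L1 not passing (-0.22, edgeR adjusted p = 0.130). In SLC 4 genes of each of these lists stood at an unadjusted p under 0.05, and DESeq2 called 4 of the KLF genes lower and 1 paralog higher and 1 lower. Between layers with IL-1β, 9 of the 11 cytokine and chemokine genes were higher and 1 lower in MLC, against 24.0% and 22.6% of all genes, with a median log2 fold change of 1.03 against -0.01 over all genes.

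The log2 fold change of the LOXL2 comparison declined with the length of the gene in the genome. The members are short, with a median genomic span, introns included, of 10012 bases against 21091 for all genes tested in MLC. Spearman correlation between log2 fold change and span was -0.49 in SLC and -0.48 in MLC over all genes, and -0.57 and -0.61 over the 46 members; these describe genes of the same libraries and carry no test. Between layers it was -0.12 over all genes and 0.27 over the members. The short genes CEBPD, EIF1, GADD45A and IER5 had log2 fold changes above 0 and the long genes TNC and PANX1 below 0, but not every member followed. BTG1, the shortest at 1536 bases, had -0.26 in SLC and -0.21 in MLC, and DUSP1, at 3156 bases, had -0.34 and -0.10. SGK1, with a span of 112915 bases, had -0.04 in SLC and -0.11 in MLC.

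When the trend with span was removed, the members called in MLC were EHD1, higher (2.17%; 7.83% of all genes), and KLF6, BIRC3, TRAF1, PANX1, NR4A2 and BTG2, lower (13.0%; 6.79% of all genes). GADD45A, EIF1, TNC and NR4A3 were no longer called. The log2 fold change of TNC went from -0.45 to -0.19 (edgeR adjusted p = 0.124), that of NR4A3 from -0.71 to -0.58 (edgeR adjusted p = 0.0621), that of GADD45A from 0.37 to 0.18 (edgeR adjusted p = 0.150) and that of EIF1 from 0.35 to 0.15 (edgeR adjusted p = 0.171). The median log2 fold change of the members became -0.22 in SLC and -0.16 in MLC, against 0.05 and 0.03 over all genes. The sign stayed as it was for 31 of the 46 members in SLC, 39 in MLC and 44 between layers. IER5, CEBPB, ZFP36, MARCKS and MAFF turned from above to below 0 in both layers, IER2, GADD45B, TNFAIP2, SQSTM1, PHLDA1 and ID2 in SLC, and BIRC2 and IER5 between layers. SGK1 and RCAN1 turned from below to above 0 in both layers, and GCH1 and RIPK2 in SLC. None of the genes that turned had an adjusted p under 0.05 in that fit. Among the pathway lists, the genes called lower in MLC went from 6 to 1 for IL-1 receptor signaling, whose median span was 57040 bases and whose median log2 fold change went from -0.21 to 0.0032. They went from 4 to 1 for the other KLF genes, from 3 to 1 for the phosphatase and Sprouty genes, from 2 to 3 for the cytokines and from 1 to 2 for the paralogs, and numbered 2 as before for the NF-κB and AP-1 lists. No gene of the 7 lists was called higher in MLC in that fit.

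**Figure D5:**
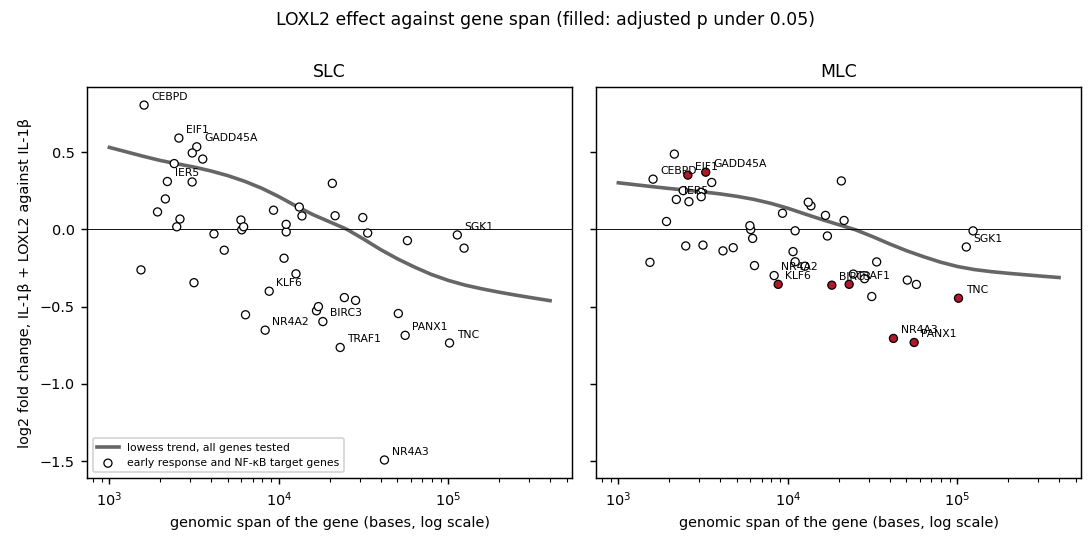
Log2 fold change of IL-1β + LOXL2 against IL-1β (y axis) by genomic span (x axis, bases, log scale) for the 46 genes in SLC (left) and MLC (right); grey line, lowess trend over all genes tested; filled points, adjusted p under 0.05. The trend runs from above 0 for short genes to below 0 for long genes in both layers, and NR4A3, TNC, TRAF1 and PANX1 lie below it.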

How the data were processed

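The authors purified poly-T selected RNA, sequenced paired ends, trimmed them at the sequencing provider, aligned them to goat assembly ARS1.2 and counted reads per gene; HISAT2 and featureCounts are named in the submitters' processing notes, and settings for strand and multi-mapping reads are not given in the sources used here, so genes that overlap or have near-identical copies are uncertain. The labels name an RNeasy kit and the methods TRIzol. The deposited values are raw counts, one table per layer, and 1783 rows share a name with another row, none of them a member.

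Genes with at least 10 counts in at least 3 libraries of a fit entered the quasi-likelihood test of edgeR 4.0.16 under R 4.3.3 (TMM scaling, glmQLFit, glmQLFTest, Benjamini-Hochberg adjustment over all genes tested, threshold 0.05). The study used DESeq2 within each layer, which is an alternative here (DESeq2 1.42.0). Each layer was fitted on its 6 libraries, MLC against SLC on the 6 IL-1β libraries, and the interaction on all 12. The standard error is the absolute log2 fold change over the root of edgeR's F. CPM were computed with TMM factors over all 12 libraries, are not divided by gene length and are compared only within a gene. An exact permutation test of 3 against 3 libraries cannot go below 0.1 and was not used. Coordinates and spans are from RefSeq's annotation of ARS1.2. The code was tested on simulated data.

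Members and lists were chosen with earlier results of these data known. Values are given in full for the 12 members with the smallest p in each layer, the 8 with the largest change between layers and ICAM1, BIRC3, TNFAIP2, CEBPB, NR4A1, DUSP1 and ZFP36, and for up to 3 genes with the smallest p in MLC in each pathway list. Alternatives were DESeq2's size factors, no filter, filterByExpr, a minimum of 10 counts in each library, the Wald test of DESeq2, a replicate block, one fit on all 12 libraries, removal of each library's lowess trend (0.3) of log2 CPM on log10 span, that removal with the block, a threshold of 0.01, and each library left out. CNMD and CD163 were not analysed here.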

Additional observations from a re-analysis of the deposited data

How the results depend on the processing

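With 3 libraries a group, and the first LOXL2 library of each layer apart from its group, the LOXL2 calls follow which libraries enter. At 31 to 117 reads for NR4A3 and 8 to 29 for HBEGF, counting error is large. DESeq2's size factors, filterByExpr and a minimum of 10 counts in every library left each count of members within 1.5 times its value. The cause of the changes below was not tested.

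In SLC, 0 members were higher and 0 lower, with 0 genes called in all. There were 5 and 10 with DESeq2's Wald test, among 4130 genes called in all. The fit on all 12 libraries gave 8 and 13, among 5951. Leaving out single libraries gave 0 to 13 higher and 0 to 17 lower, all of the calls without the first LOXL2 replicate. Over all genes these fits called 0 to 8803. In MLC, 2 were higher and 6 lower, among 2986 genes called in all. There were 4 higher without a filter, among 3655 genes called, and 1 higher with the span trend removed, among 2015. The fit on all 12 libraries and an adjusted p under 0.01 each gave 0 and 0, with 0 genes called in all. Leaving out single libraries gave 0 to 10 higher and 0 to 14 lower, and 0 to 6613 genes called in all. Between layers, 13 were higher, and 8 in the fit on all 12 libraries, which called 3723 genes in all against 6544 in the main fit. With the span trend removed, the median log2 fold change of the members was -0.22 in SLC and -0.16 in MLC, and -0.23 and -0.16 with the replicate block added. With span left in, leaving out single libraries moved the median between -0.11 and 0.0074 in MLC, where it passed 0 without the second IL-1β replicate, and between -0.086 and 0.021 between layers, where it passed 0 without the third SLC IL-1β replicate.

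Replicate numbers are shared between groups. Deviations of same-numbered libraries correlated at 0.07, -0.29 and 0.22 in SLC, 0.11, 0.17 and -0.10 in MLC and -0.08, -0.15 and -0.07 between layers, and 1 of the 9 correlated best with its own number. At 3 libraries a group, these correlations cannot decide whether same-numbered libraries share an animal or a batch, and no label says. With the replicate block, MLC had 5 members higher and 10 lower among 4054 genes called in all, against 2986 without it. SLC had 0 members and 0 genes called. SQSTM1 was no longer called between layers (edgeR adjusted p = 0.0825). With the span trend removed as well, MLC had RCAN1 and EHD1 higher and 12 members lower, among 2983 genes called in all.

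Some of the genes named in the report changed sign. With the span trend removed, the log2 fold change in SLC was -0.00070 for IER5, -0.00080 for IER2, -0.11 for GADD45B, -0.011 for TNFAIP2, -0.23 for CEBPB, -0.22 for ZFP36, 0.36 for SGK1, 0.28 for RCAN1 and -0.22 for PHLDA1, and in MLC -0.0079 for IER5, -0.15 for CEBPB, -0.023 for ZFP36, 0.15 for SGK1 and 0.26 for RCAN1. With the replicate block added, it was -0.0061 for IER5, -0.0013 for IER2, -0.11 for GADD45B, -0.026 for TNFAIP2, -0.23 for CEBPB, -0.24 for ZFP36, 0.36 for SGK1, 0.27 for RCAN1 and -0.23 for PHLDA1 in SLC and -0.0090 for IER5, -0.15 for CEBPB, -0.021 for ZFP36, 0.16 for SGK1 and 0.29 for RCAN1 in MLC, where RCAN1 was called (edgeR adjusted p = 0.0225). The block alone gave 0.0074 for RCAN1 in MLC. When single libraries were left out, the range was -0.037 to 0.21 for ZFP36 in SLC, -0.095 to 0.036 for SGK1 in SLC, -0.073 to 0.28 for TNFAIP2 in SLC, -0.53 to 0.16 for ICAM1 in SLC, -0.0075 to 0.049 for PHLDA1 in SLC, -0.27 to 1.01 for CCL5 in SLC, -0.040 to 0.15 for CEBPB in MLC, -0.15 to 0.12 for DUSP4 in MLC, -0.27 to 0.068 for ICAM1 in MLC, -0.24 to 0.046 for SGK1 in MLC and -0.12 to 0.16 for RCAN1 in MLC.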
